A study of Mus musculus with 12 samples.

Results

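The tumour necrosis factor (TNF) and TNF receptor superfamilies were followed in SCC7 cells, a mouse squamous carcinoma line, grown in media conditioned by macrophages. Members were the protein-coding genes whose mouse symbol starts with Tnfsf or Tnfrsf and a number, together with Tnf, Lta, Ltb, Ltbr, Fas, Fasl, Cd27, Cd40, Cd40lg, Cd70 and Ngfr. This gave 42 of the 55487 genes in the count table, 17 of them ligands and 25 of them receptors. Of the 42, 26 passed the filter on low counts and were tested, namely 7 ligands and 19 receptors. A member could pass through 1 medium alone: 15 of the 26 were over the filter in all 3 libraries of every medium, and 8 were so in 1 medium only. Of the tested members, 24 differed among the 4 media (edgeR's quasi-likelihood F-test, with p-values adjusted by Benjamini and Hochberg's method across every tested gene), where 83.5% of all 14509 tested genes did.

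All SCC7 cells carried the genotype labelled WT and were kept for 24 h in medium taken from bone-marrow-derived macrophages, with 3 libraries per medium and 12 in all. In the M1 CM group the macrophages had received interferon-gamma at 20 ng/ml for 24 h, and in the M2 CM group interleukin-4 at 20 ng/ml for the same time. In the TAM CM group they had been held in 75% medium from SCC7 cultures, and in the M0 CM group, to which the others were compared, in plain control medium. The sources used here do not give whether cytokine or SCC7 medium was taken off before collection, so macrophage products and agent carried over cannot be told apart. One library, the third of M2 CM, has a label that names a melanoma as its cell type. It was kept, and each result that lost its call without it is given with that value. The labels do not say that libraries came from separate cultures, so p-values measure only how these samples scatter, and that scatter may be technical. In RNA from whole cultures, fewer cells of a type and less RNA per cell cannot be told apart.

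Library totals ran from 18996937 to 22596630 counts. Levels are in CPM (counts scaled by library size), where 1 CPM is about 20 counts in a library. Among 12 squamous epithelial markers, Krt8 and Krt18 carried most of the counts, Krt6a, Epcam and Dsg3 had none, and Krt5, Krt14 and Cdh1 were under 0.1 CPM in every medium, so several defining markers of the labelled cell type were absent. Of 7 fibroblast markers, collagen and Pdgfra genes were high, with Col1a2 at 784 CPM in M1 CM, 911 in M2 CM, 554 in TAM CM and 1475 in M0 CM, Dcn was between 2.82 and 16.9 CPM in the group means, and Lum and Thy1 had no counts. The summed macrophage list lay between 34.9 and 40.7 CPM in M1 CM, 22.7 and 25.1 in M2 CM, 41.7 and 51.0 in TAM CM, and 23.3 and 24.5 in M0 CM. Cd14 made up most of it, C1qa and C1qb had no counts in any library, and Adgre1, Itgam and Ptprc were under 0.1 CPM in every medium. The lists for T and NK cells, B cells, neutrophils and endothelium summed to at most 2.38 CPM in any library. The melanocyte list summed to 5.57 to 7.34 CPM over the M2 CM libraries and 7.21 to 9.31 in M0 CM, nearly all of it Mitf, with Sox10 at 0 in every library.

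TNF superfamily ligands are mostly trimeric proteins of the cell membrane, some of which proteases release into the medium. Their receptors fall into death domain receptors, which can recruit FADD or TRADD and start caspase-8 or RIPK1 signalling, receptors that bind TRAF adaptors and feed NF-kB and kinase cascades, and decoy receptors that bind ligand without passing a death signal. In carcinoma cells the family is best known for Fas and TRAIL receptors as routes to cell death, for TNF receptors as drivers of NF-kB, and for Fn14 as a receptor induced by growth factors and injury.

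The promoters of 6 members whose responses are described below are shown first, chosen among the members with a RefSeq window so that each medium has a member that was higher in it. They are Fas, Tnfrsf14, Tnfrsf1a and Tnfsf10, which were all higher in M1 CM, Tnfrsf8, which was higher in M2 CM, and Tnfrsf12a, which was higher in TAM CM. Each line gives the 250 bases before the RefSeq transcription start (GRCm38.p6), written 5′ to 3′ on the gene's strand, with matches to the motifs searched in capitals.
Fas, chr19:34290409-34290658, plus strand: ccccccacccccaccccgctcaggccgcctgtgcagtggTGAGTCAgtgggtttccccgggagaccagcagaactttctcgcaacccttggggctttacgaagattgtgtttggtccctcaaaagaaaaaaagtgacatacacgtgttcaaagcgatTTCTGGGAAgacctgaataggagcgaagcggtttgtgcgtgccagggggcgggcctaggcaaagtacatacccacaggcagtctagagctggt
Tnfrsf14, chr4:154928078-154928327, minus strand: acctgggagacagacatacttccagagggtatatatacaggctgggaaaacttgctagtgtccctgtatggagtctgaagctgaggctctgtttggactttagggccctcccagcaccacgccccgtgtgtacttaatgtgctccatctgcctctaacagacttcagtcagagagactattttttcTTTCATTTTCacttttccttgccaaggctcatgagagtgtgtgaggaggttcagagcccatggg
Tnfrsf1a, chr6:125349473-125349722, plus strand: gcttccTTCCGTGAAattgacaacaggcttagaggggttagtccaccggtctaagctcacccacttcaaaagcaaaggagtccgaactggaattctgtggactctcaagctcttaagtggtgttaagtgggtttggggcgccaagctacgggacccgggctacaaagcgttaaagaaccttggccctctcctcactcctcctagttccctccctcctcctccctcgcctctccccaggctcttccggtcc
Tnfsf10, chr3:27316827-27317076, plus strand: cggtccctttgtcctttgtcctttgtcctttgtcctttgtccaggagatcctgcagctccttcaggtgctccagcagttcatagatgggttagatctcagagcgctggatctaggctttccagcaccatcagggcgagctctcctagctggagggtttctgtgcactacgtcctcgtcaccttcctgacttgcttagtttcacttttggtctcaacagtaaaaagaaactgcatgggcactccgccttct
Tnfrsf8, chr4:145315165-145315414, minus strand: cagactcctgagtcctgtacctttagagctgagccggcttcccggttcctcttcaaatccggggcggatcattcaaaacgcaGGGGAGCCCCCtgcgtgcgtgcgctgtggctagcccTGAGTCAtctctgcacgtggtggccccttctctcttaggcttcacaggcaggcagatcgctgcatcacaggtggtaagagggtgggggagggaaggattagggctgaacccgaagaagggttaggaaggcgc
Tnfrsf12a, chr17:23677450-23677699, minus strand: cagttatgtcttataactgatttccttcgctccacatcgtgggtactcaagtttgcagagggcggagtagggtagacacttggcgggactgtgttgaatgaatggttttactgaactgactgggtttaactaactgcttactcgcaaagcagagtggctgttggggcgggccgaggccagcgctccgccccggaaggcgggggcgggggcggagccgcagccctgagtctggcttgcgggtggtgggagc
The capitals in Fas are an AP-1 match (TGANTCA) from position -211 and a GAS match (TTCNNNGAA, the gamma-activated sequence) from position -93. Tnfrsf14 holds an ISRE match (GAAANNGAAA, the element of interferon-stimulated genes) from -64, read on the opposite strand, and Tnfrsf1a a GAS match from -244. In Tnfrsf8 the first capitals are a pair of overlapping NF-kB consensus matches from -168 and -167, and the second an AP-1 match from -132. Tnfsf10 and Tnfrsf12a had no match in these letters. Motifs were searched on both strands of windows that also take the 50 bases after the start; 32 of the 42 members had such a window. The GAS letters occurred in windows of 9 members (25% of the members' windows against 8.3% of all 32851 windows), ISRE in 4 members (11.1% against 3.44%), NF-kB in 4 (11.1% against 5.8%) and AP-1 in 6 (19.4% against 7.81%). A match did not go with a rise in M1 CM throughout: Tnfrsf1b held both GAS and ISRE letters and was not called there, Tnfrsf9 held GAS letters and fell there, and Tnfsf10 rose with neither. Among the members that rose there, only Fas, Tnfrsf14 and Tnfrsf1a had a GAS or ISRE match. None was found for Cd27, Tnf, Tnfrsf11b, Tnfrsf22 and Tnfrsf23, though a member without a window could not be searched. All risers with such a match are among the promoters printed, so the display overstates how often members raised in M1 CM held one. The other holders of GAS (Lta, Ltb, Tnfrsf18, Tnfrsf19 and Tnfrsf25) or ISRE letters (Tnfrsf17 and Tnfsf13b) were not tested. These are letter matches, not measured binding, and their part in any change was not tested.

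Set per kilobase of exon so that genes can be compared, Tnfrsf12a was the most abundant member in every medium, at 79.8 CPM per kilobase in M1 CM, 112 in M2 CM, 210 in TAM CM and 96.3 in M0 CM. Tnfrsf1a followed in M1 CM (49.5) and M0 CM (36.1), and its level was 31.8 in M2 CM and 32.2 in TAM CM. Tnfrsf1b stood at 31.5 in M1 CM, 33.4 in M2 CM, 16.1 in TAM CM and 30.9 in M0 CM. Ltbr stood at 30.7, 29.3, 33.4 and 30.6 CPM per kilobase in M1, M2, TAM and M0 CM. Receptors made up nearly all of the family's RNA in these cells: the 17 ligands together summed to 9.33 ± 1.13 CPM per kilobase in M1 CM, 6.49 ± 0.885 in M2 CM, 8.74 ± 0.271 in TAM CM and 6.86 ± 0.310 in M0 CM (SD, n = 3 each). The death domain receptors together ran from 88.3 to 90.5 CPM per kilobase in M1 CM, 54.2 to 56.6 in M2 CM, 51.8 to 55.7 in TAM CM and 53.1 to 54.9 in M0 CM, so M1 CM stood apart from the other media. Only Fas (23.6 in M1 CM, 2.00 in M0 CM) and Tnfrsf1a were called there among them. Tnfrsf10b stood at 15.5 in M1 CM and 15.4 in M0 CM, so this was no shift of the whole class. The decoy receptors stood apart in M2 CM, at 31.7 to 33.5 CPM per kilobase, against 14.7 to 17.4 in M1 CM, 10.3 to 12.1 in TAM CM and 10.8 to 11.5 in M0 CM. Without Tnfrsf11b the decoy sum was 9.60 to 10.6 in M2 CM, 11.4 to 14.1 in M1 CM, 9.25 to 11.2 in TAM CM and 8.45 to 9.05 in M0 CM. M2 CM was then still above M0 CM, but below M1 CM and overlapping with TAM CM, so its place above every other medium came from Tnfrsf11b. TRAF-binding receptors together came to 254 to 286 CPM per kilobase in TAM CM, against 185 to 193 in M0 CM, and most of this was Tnfrsf12a. The other 14 TRAF-binding receptors summed to 58.7 to 65.4 in TAM CM, against 89.6 to 94.4 in M0 CM, and were lowest in TAM CM among the 4 media.

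**Figure D1:**
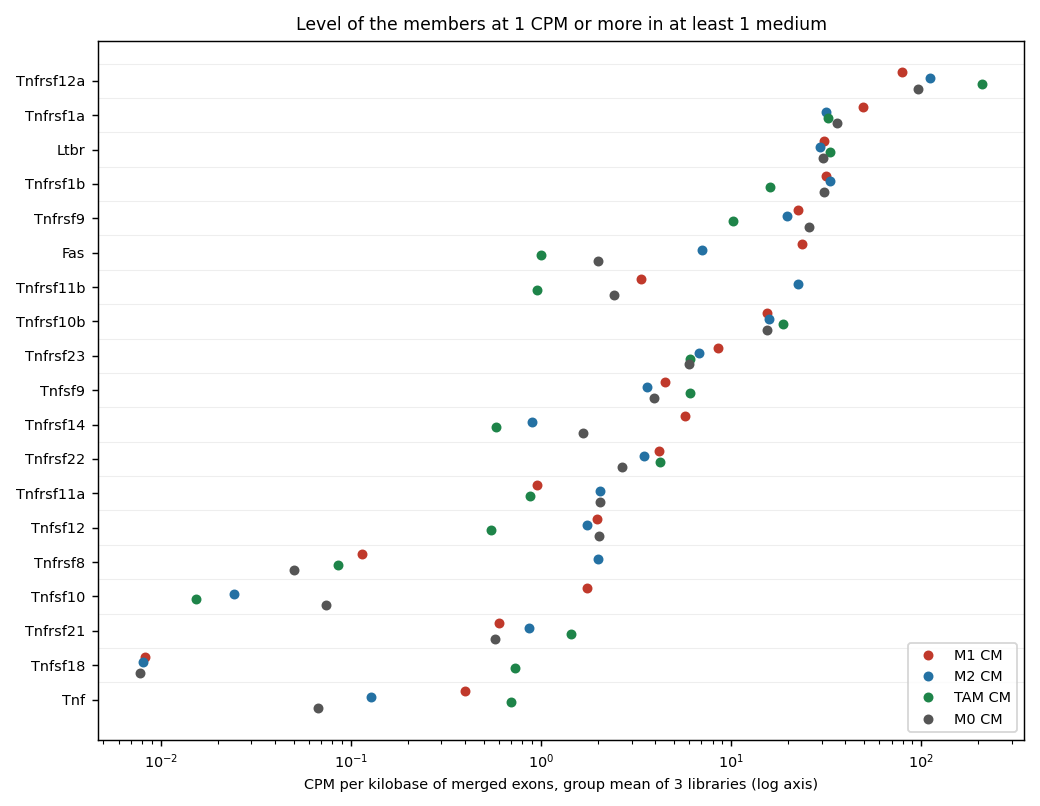
Group mean level per kilobase of merged exons (log axis) of the members with at least 1 CPM in some medium; colours are the 4 media, 3 libraries each. Tnfrsf12a leads in each medium, from 79.8 CPM per kilobase in M1 CM to 210 in TAM CM.

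Against M0 CM, M1 CM changed 12 of the 26 tested members, 9 higher and 3 lower (46.2%, where 53.4% of all tested genes were called, 27.7% higher and 25.6% lower). M2 CM changed 11, with 7 higher and 4 lower (42.3%, where 39.4% of all were called, 21% higher and 18.5% lower). TAM CM changed 21, with 11 higher and 10 lower (80.8%, where 70% of all were called, 35.1% higher and 34.9% lower). A change of at least 2-fold was seen for 6, 4 and 14 members with M1, M2 and TAM CM, where 8.55%, 3.25% and 19% of all tested genes changed that much. These counts include members that were over the filter in all 3 libraries of 1 medium only. They were Tnfsf10 in M1 CM, Tnfrsf8 in M2 CM, and Ngfr, Tnf, Tnfsf11 and Tnfsf18 in TAM CM. Cd27, also counted, was over the filter in only 3 libraries, all of them from M1 or TAM CM. Cd27 and these members were tested because they were high in those media, so no excess over all tested genes is read from the counts. The median log2 fold change of the tested members was 0.30, 0.10 and 0.07 in M1, M2 and TAM CM, against 0.01, 0.00 and 0.00 for all tested genes. The 3 comparisons share their M0 CM libraries. The members called differed in direction between the media: 8 of 26 members were called in all 3 comparisons, where 23.3% of all tested genes were, of which Tnfrsf22 was higher in all of them, Tnfrsf9 was lower in all of them, and the other 6 were higher in some and lower in others, as were 9.53% of all tested genes. The call of Tnfsf10 in M2 CM, one of these, was lost without any 1 of 3 libraries.

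**Figure D2:**
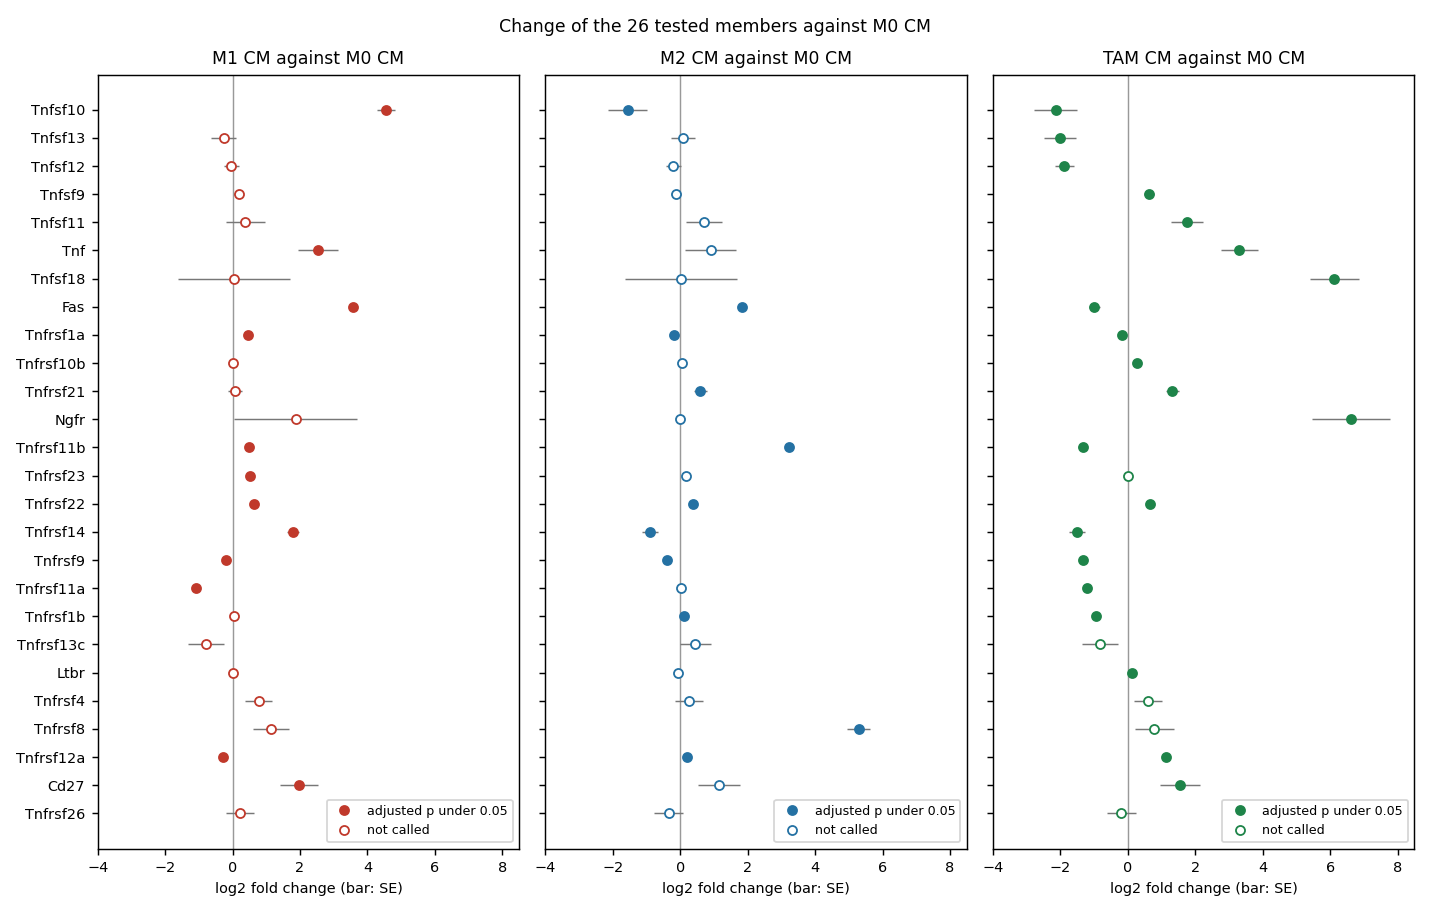
Log2 fold change of the 26 tested members in M1, M2 and TAM CM against M0 CM (bars: SE of the fit; filled points: adjusted p under 0.05). Called members lie on both sides of 0 in each comparison, 9 higher and 3 lower in M1 CM, 7 and 4 in M2 CM, and 11 and 10 in TAM CM; the fitted values of Ngfr and Tnfsf18 rest on groups with 0 or 1 counts and are no measure of their size.

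Among the ligands, Tnfsf10 (TRAIL, which binds the death receptor encoded by Tnfrsf10b) had 9.27, 9.76 and 8.75 CPM in the M1 CM libraries, against 0.383, 0.597 and 0.193 CPM in M0 CM. M2 CM gave 0.232, 0.150 and 0 CPM, and TAM CM 0.0546, 0.136 and 0.0509 CPM. The M1 CM libraries stood far above all others, whose counts were few: 580 counts in M1 CM, 8 in M2 CM, 5 in TAM CM and 25 in M0 CM. Tnfsf10 rose 23.5-fold in M1 CM against M0 CM (log2 fold change 4.55, SE 0.27, adjusted p 3.9e-20, edgeR). It fell by 2.15 on the log2 scale in TAM CM (adjusted p 0.00283, edgeR), and the TAM and M0 CM libraries did not overlap. In M2 CM the log2 fold change of Tnfsf10 was -1.56 (adjusted p 0.0274, edgeR); those libraries overlapped with M0 CM, and the call was lost without the first (adjusted p 0.0552) or second (0.179) M0 CM library or the third M2 CM library (0.178, edgeR). Without the second TAM CM library the TAM CM value was -2.75, and without the first M2 CM library the M2 CM value was -2.32.

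Tnf, the founding cytokine of the family, had 0.450, 1.01 and 0.512 CPM in M1 CM, 0.139, 0.201 and 0.285 in M2 CM, 1.53, 0.633 and 1.27 in TAM CM, and 0.0850, 0.199 and 0.0482 in M0 CM. The M1 and TAM CM libraries were all above the M0 CM libraries, while M2 and M0 CM overlapped. Tnf rose in M1 CM by 2.53 on the log2 scale (SE 0.60, adjusted p 0.000366) and in TAM CM by 3.30 (SE 0.55, adjusted p 6.84e-07, edgeR). In M2 CM the log2 fold change was 0.90 (adjusted p 0.369, edgeR). These folds rest on 41 counts in M1 CM, 67 in TAM CM and 7 in M0 CM. They depend on the second M0 CM library, without which they were 3.17 for M1 CM and 3.94 for TAM CM. The macrophage list was also higher in M1 and TAM CM, as given above. Without Cd14 its sum was 11.3 to 12.4 CPM in M1 CM and 4.97 to 6.98 in TAM CM, against 6.16 to 6.56 in M0 CM, so TAM and M0 CM overlapped. The part of macrophages in the Tnf values of M1 and TAM CM was not tested. Between TAM and M1 CM the adjusted p was 0.0802 (edgeR), and the difference was called without the second M1 CM library (0.0208) or the second TAM CM library (0.0235).

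Tnfsf18 (GITR ligand, which costimulates T cells through Tnfrsf18) was found almost only in TAM CM. Its libraries there held 1.80, 1.08 and 1.63 CPM, from 89 counts, and M1, M2 and M0 CM had 1 count each over 3 libraries. The ratio of TAM CM to M0 CM was 95.4, with an exact 95% interval of 16.7 to 3808 that covers counting error only (adjusted p 1.96e-10, edgeR). Tnfsf9 (4-1BB ligand) had 7.48, 8 and 8.1 CPM in TAM CM, against 5.10, 5.52 and 4.67 in M0 CM. These libraries did not overlap, and Tnfsf9 rose by 0.63 on the log2 scale (SE 0.14, adjusted p 8.42e-05, edgeR). It had 4.77, 6.06 and 6.50 CPM in M1 CM and 4.78, 5.07 and 4.18 in M2 CM, both overlapping with M0 CM (adjusted p 0.316 and 0.541, edgeR). Tnfsf11 (RANK ligand, which drives osteoclast formation) stayed under 1 CPM, with 0.655, 0.994 and 0.713 CPM in TAM CM, against 0.298, 0.149 and 0.241 in M0 CM (log2 fold change 1.75, adjusted p 0.00121, edgeR).

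Tnfsf12 (TWEAK, the ligand of Fn14) went the other way in TAM CM, with 0.873, 0.858 and 0.764 CPM there, against 3.53, 2.54 and 3.13 CPM in M0 CM. It fell by 1.88 on the log2 scale (SE 0.27, adjusted p 3.22e-08, edgeR). In M1 CM it had 2.47, 3.90 and 2.61 CPM and in M2 CM 3.58, 2.66 and 1.76 CPM, overlapping with M0 CM (adjusted p 0.893 and 0.5, edgeR). Tnfsf12's neighbour Tnfsf13 (APRIL, a B cell survival factor) had 0.218, 0.226 and 0.153 CPM in TAM CM, against 0.765, 0.845 and 0.867 in M0 CM. It fell by 2.01 (SE 0.47, adjusted p 0.000186, edgeR). Both genes overlap the read-through gene Tnfsfm13 on their own strand and Tnfsf13os on the other, so how reads were split among them is uncertain. The receptor of Tnfsf12, Tnfrsf12a, was higher in TAM CM, as given with the receptors.

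**Figure D3:**
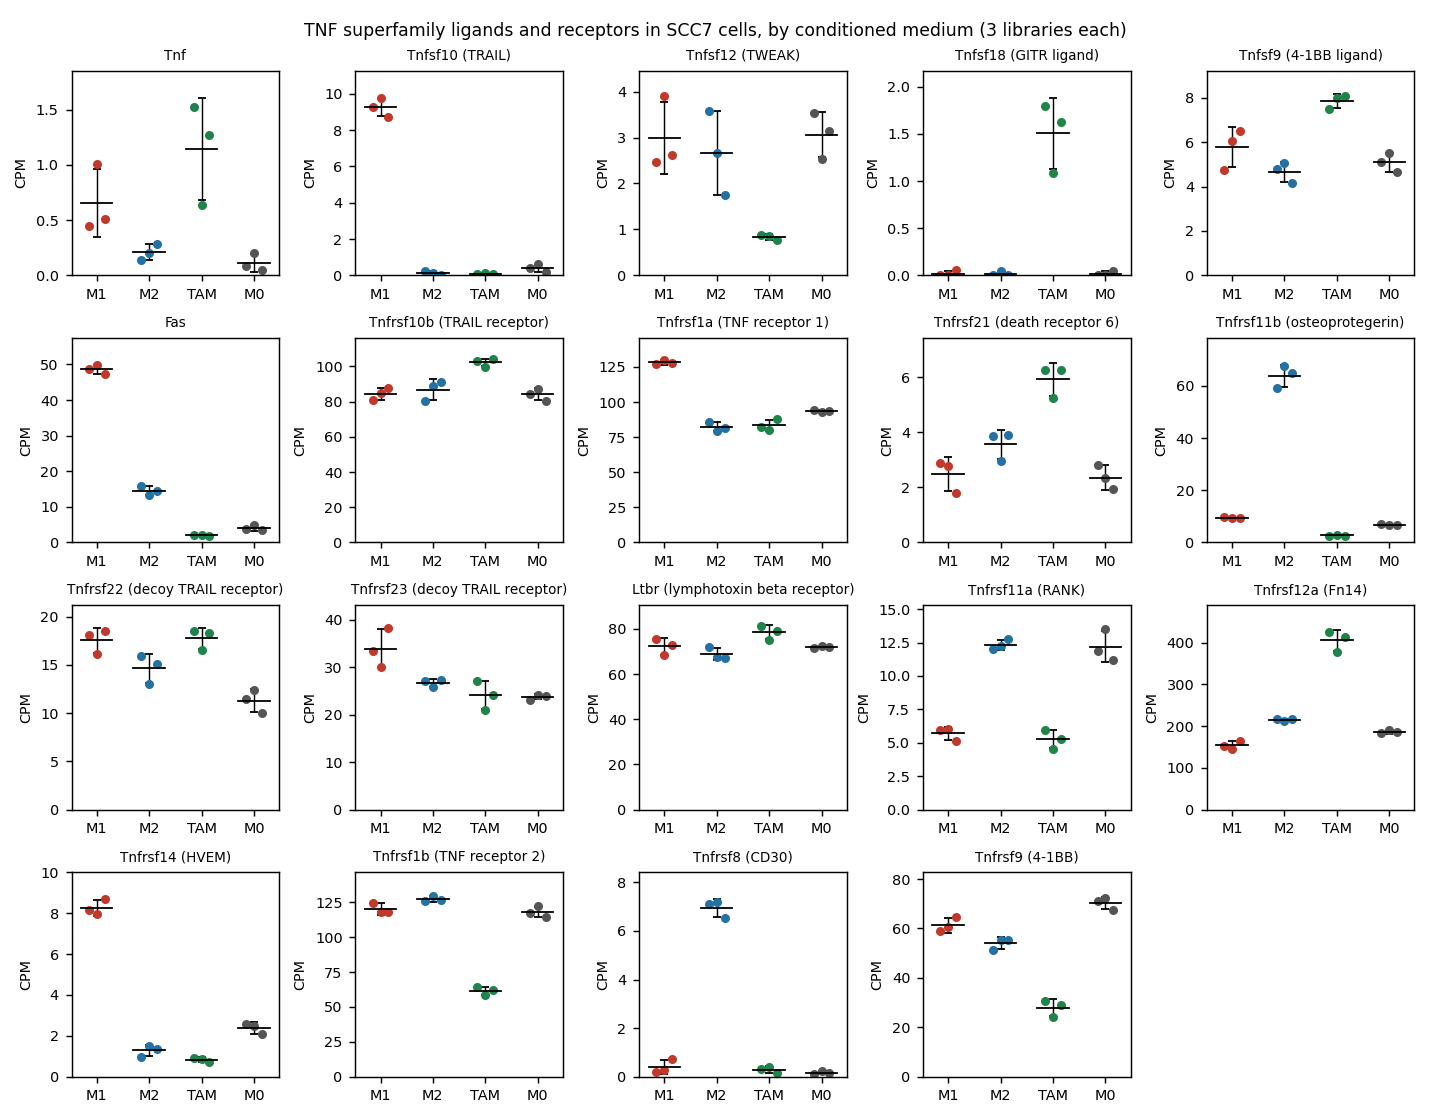
CPM in each library (points; line and bar: mean and SD of 3) of members described in the text, with M1, M2 and TAM CM left of M0 CM. Fas and Tnfsf10 peak in M1 CM, Tnfrsf11b and Tnfrsf8 in M2 CM, and Tnfrsf12a and Tnfsf18 in TAM CM.

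Among the death domain receptors, Fas (ENSMUSG00000024778, chr19:34290666-34327772 in mm10), the receptor of Fas ligand, separated all 4 media. It had 48.7, 49.8 and 47.2 CPM in M1 CM, 15.8, 13.2 and 14.5 in M2 CM, 2.07, 2.17 and 1.94 in TAM CM, and 3.83, 5.02 and 3.52 in M0 CM. No library of one medium overlapped with another medium. Fas rose 11.8-fold in M1 CM (log2 fold change 3.56, SE 0.10, adjusted p 3.63e-34) and 3.54-fold in M2 CM (1.82, SE 0.11, adjusted p 4.29e-19), and fell by 0.99 in TAM CM (SE 0.16, adjusted p 4.67e-07, all edgeR). Its ligand gene Fasl had 3 counts over the 12 libraries and was not tested.

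Tnfrsf1a (TNF receptor 1, the widely expressed receptor of soluble TNF) had 127, 130 and 128 CPM in M1 CM, 86.1, 79.5 and 81.7 in M2 CM, 82.1, 80.4 and 87.9 in TAM CM, and 94.4, 92.6 and 93.6 in M0 CM. M1 CM was above and M2 and TAM CM were below M0 CM in every library. The log2 fold changes were 0.46 (SE 0.04, adjusted p 4.18e-14) in M1 CM, -0.18 (adjusted p 0.000315) in M2 CM and -0.16 (adjusted p 0.000438, edgeR) in TAM CM. Tnfrsf10b, the TRAIL receptor of mouse cells, moved little: it had 103, 99.7 and 104 CPM in TAM CM, against 84.5, 87.3 and 80.6 in M0 CM, and rose there by 0.28 (SE 0.04, adjusted p 2.42e-07, edgeR). In M1 CM it had 80.8, 84.8 and 87.7 CPM and in M2 CM 80.2, 88.9 and 91.4 CPM, overlapping with M0 CM (log2 fold changes 0.00 and 0.04). Tnfrsf10b was not called in M1 CM, where the gene of its ligand rose.

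Tnfrsf21 (death receptor 6) had 2.88, 2.79 and 1.79 CPM in M1 CM, 3.85, 2.96 and 3.90 in M2 CM, 6.28, 5.24 and 6.26 in TAM CM, and 2.81, 2.34 and 1.93 in M0 CM. The TAM CM libraries were the highest, and Tnfrsf21 rose there by 1.32 on the log2 scale (SE 0.19, adjusted p 1.92e-08, edgeR). In M2 CM it was higher by 0.59 (adjusted p 0.0137, edgeR); that call was lost without the third M0 CM library (0.0928) the first M2 CM library (0.0591) or the third M2 CM library (0.0643). Ngfr (the p75 neurotrophin receptor) was detected in TAM CM at 0.546, 0.542 and 0.662 CPM from 35 counts, against 0 counts in M0 CM. This makes it at least 12.5-fold higher in TAM CM (floor of 3 counts over the group; adjusted p 2.02e-06, edgeR). M1 CM held 1 count of Ngfr and M2 CM none.

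Among the decoy receptors, Tnfrsf11b (osteoprotegerin, a secreted decoy that binds RANK ligand and TRAIL; chr15:54250619-54278484) rose most in M2 CM. It had 9.85, 9.33 and 9.41 CPM in M1 CM, 59.4, 67.5 and 64.8 in M2 CM, 2.57, 2.98 and 2.50 in TAM CM, and 7.01, 6.86 and 6.55 in M0 CM. The libraries of each medium stood apart from those of every other medium. The rise in M2 CM was 9.36-fold (log2 fold change 3.23, SE 0.08, adjusted p 5.29e-35) and that in M1 CM 0.48 on the log2 scale (SE 0.10, adjusted p 5.22e-05, edgeR). In TAM CM Tnfrsf11b fell by 1.34 (SE 0.13, adjusted p 5.19e-13, edgeR), and between TAM and M2 CM the log2 fold change was -4.56 (adjusted p 3.74e-39, edgeR). RANK ligand (Tnfsf11), which it binds, was higher in TAM CM, as given above.

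Tnfrsf22 and Tnfrsf23 are decoy TRAIL receptors of the mouse. Tnfrsf22 had 18.1, 16.1 and 18.5 CPM in M1 CM, 15.9, 13.0 and 15.1 in M2 CM, 18.5, 16.5 and 18.3 in TAM CM, and 11.5, 12.4 and 10.02 in M0 CM. All libraries of the other media lay above M0 CM, with log2 fold changes of 0.63 in M1 CM (adjusted p 1.2e-07), 0.38 in M2 CM (0.00143) and 0.65 in TAM CM (3.86e-08, edgeR). Tnfrsf23 rose in M1 CM, with 33.5, 30.1 and 38.4 CPM there, against 23.2, 24.2 and 24.0 in M0 CM (log2 fold change 0.51, adjusted p 4.94e-07, edgeR). Its values were 27.2, 25.8 and 27.3 CPM in M2 CM (adjusted p 0.0860) and 27.1, 21.1 and 24.2 in TAM CM (0.880, edgeR). In M2 CM it was called when M2 and M0 CM were fitted alone (0.0312) or without the second M1 CM library (0.0495). These genes lie side by side with Tnfrsf26 on chromosome 7 as near copies, and an antisense gene overlaps them, so their counts are uncertain. Tnfrsf26 was not called among the 4 media.

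Among the TRAF-binding receptors, Tnfrsf12a (Fn14, the receptor of TWEAK; chr17:23675445-23677468) was highest in TAM CM. It had 152, 146 and 164 CPM in M1 CM, 216, 213 and 218 in M2 CM, 427, 377 and 414 in TAM CM, and 183, 190 and 185 in M0 CM. The 4 media did not overlap. Tnfrsf12a rose 2.18-fold in TAM CM (log2 fold change 1.13, SE 0.04, adjusted p 4.83e-24) and by 0.21 in M2 CM (adjusted p 4.03e-05), and fell by 0.27 in M1 CM (adjusted p 6.29e-07, all edgeR).

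Tnfrsf8 (CD30, known from activated lymphocytes and lymphomas) was low outside M2 CM. It had 0.180, 0.289 and 0.716 CPM in M1 CM, 7.11, 7.17 and 6.51 in M2 CM, 0.328, 0.407 and 0.153 in TAM CM, and 0.128, 0.249 and 0.145 in M0 CM. The M2 CM libraries were far above all others, with 433 counts, against 24 in M1 CM, 18 in TAM CM and 11 in M0 CM. The rise in M2 CM was 39.2-fold (log2 fold change 5.29, SE 0.33, adjusted p 1.65e-18, edgeR). The summed T and NK cell list lay between 0.279 and 0.333 CPM in M2 CM, nearly all of it Trac, against 0.0497 to 0.128 CPM in M0 CM; Cd3e and Cd8a had no counts in any library. The B cell list lay between 0.0464 and 0.333 CPM in M2 CM, against 0.149 to 0.434 in M0 CM. The part of such cells in the Tnfrsf8 values was not tested. In M1 CM the log2 fold change was 1.14 (adjusted p 0.0725), which was called without the first M1 CM library (0.0199, edgeR), and in TAM CM 0.79 (0.224).

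Tnfrsf14 (HVEM, the receptor of LIGHT and a ligand of BTLA) had 8.14, 7.93 and 8.70 CPM in M1 CM, 0.975, 1.5 and 1.38 in M2 CM, 0.928, 0.858 and 0.713 in TAM CM, and 2.59, 2.49 and 2.07 in M0 CM. M1 CM was above and both M2 and TAM CM below M0 CM in every library. The log2 fold changes were 1.79 (SE 0.17, adjusted p 1.58e-12) in M1 CM, -0.90 (adjusted p 0.00106) in M2 CM and -1.51 (adjusted p 3.93e-07, edgeR) in TAM CM. The direction across the 3 media was the same as that of Tnfsf10 and Tnfrsf1a. The gene of its ligand LIGHT, Tnfsf14, had no counts.

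Tnfrsf1b (TNF receptor 2, which prefers membrane TNF) had 125, 118 and 118 CPM in M1 CM, 126, 130 and 127 in M2 CM, 64.2, 58.5 and 61.9 in TAM CM, and 118, 122 and 115 in M0 CM. TAM CM stood below the other media, and the log2 fold change was -0.94 (SE 0.04, adjusted p 1.16e-25, edgeR). The difference of 0.11 in M2 CM (adjusted p 0.0201, edgeR) lost its call in 6 alternatives, among them DESeq2 (adjusted p 0.0510), library sizes alone (0.268) and the fit without the third M2 CM library (0.0521). Tnfrsf9 (4-1BB, the receptor of Tnfsf9) had 58.8, 60.4 and 64.5 CPM in M1 CM, 51.2, 55.4 and 55.4 in M2 CM, 30.6, 24.1 and 29.1 in TAM CM, and 71.2, 72.3 and 67.4 in M0 CM. Every medium was below M0 CM in each library. Tnfrsf9 fell by 0.20 in M1 CM (adjusted p 0.00216), by 0.38 in M2 CM (3.7e-07) and by 1.34 in TAM CM (SE 0.06, adjusted p 1.17e-22, all edgeR). It overlaps Camta1 on the other strand, and the strand setting of the counting is not given, so its counts may hold reads of that gene.

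Tnfrsf11a (RANK, the receptor of RANK ligand) had 5.94, 6.01 and 5.17 CPM in M1 CM, 12, 12.2 and 12.7 in M2 CM, 5.95, 4.56 and 5.30 in TAM CM, and 11.9, 13.5 and 11.2 in M0 CM. M1 and TAM CM stood apart from M2 and M0 CM. Tnfrsf11a fell by 1.09 in M1 CM (SE 0.12, adjusted p 2.73e-11) and by 1.22 in TAM CM (SE 0.12, adjusted p 8.51e-13), and the log2 fold change in M2 CM was 0.02 (adjusted p 0.922, all edgeR). Ltbr (lymphotoxin beta receptor, which drives non-canonical NF-kB) had 81.2, 75.3 and 79.3 CPM in TAM CM, against 71.6, 72.7 and 72.0 in M0 CM. The log2 fold change was 0.12 (SE 0.05, adjusted p 0.0141, edgeR); it was 0.03 (0.618) with library sizes alone, and the call was lost without the first TAM CM library (0.0817). Its ligand genes Lta and Ltb had 6 and 3 counts over all libraries.

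Cd27 (a T cell costimulator) was called under 1 CPM. As given above, Cd27 passed the filter only through libraries of M1 and TAM CM, the media where it was called. It had 0.270, 0.529 and 1.13 CPM in M1 CM, 0.279, 0.301 and 0.475 in M2 CM, 0.600, 0.407 and 0.407 in TAM CM, and 0.128, 0.149 and 0.193 in M0 CM. All libraries of the other media lay above M0 CM, but M2 CM was not called (log2 fold change 1.15, adjusted p 0.151, edgeR). The log2 fold change was 1.98 in M1 CM (adjusted p 0.00283), which was 1.32 and not called without the third M1 CM library (0.0921), and 1.55 in TAM CM (0.0202, edgeR), lost without the first TAM CM library (0.0797) or the first M0 CM library (0.0675). It overlaps Vamp1 on the other strand. The other called members under 1 CPM were Ngfr, Tnfsf11 and Tnfsf13, given above, and Tnfrsf13c (the BAFF receptor), which lay between 0.0904 and 0.602 CPM, was highest in M2 CM and was called against M0 CM in none of the 3 comparisons. Tnfrsf4 (OX40) was not called among the media. Of the 16 members that were not tested, 5 had no counts in any library: Cd40lg, Cd70, Tnfrsf13b, Tnfsf14 and Tnfsf8. A further 7 had 1 to 6 counts, among them Cd40 with 5. The remaining 4 had 80 counts (Tnfrsf18), 34 (Tnfrsf25), 49 (Tnfsf13b) and 95 (Tnfsf15) over the 12 libraries. Tnfrsf25 (death receptor 3) had 3 counts in M1 CM, 5 in M2 CM, 8 in TAM CM and 18 in M0 CM; the ratio of M1 CM to M0 CM was 0.172, with an exact 95% interval for counting error of 0.0324 to 0.587 and no test over libraries.

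Between the conditioned media themselves, TAM CM against M1 CM changed 18 of the 26 tested members, 8 higher and 10 lower (where 67.2% of all tested genes were called, 32.8% higher and 34.4% lower). TAM CM against M2 CM changed 20, with 10 higher and 10 lower (68.4% of all, 34.3% higher and 34.1% lower), and M2 CM against M1 CM changed 14, with 6 higher and 8 lower (56.2% of all, 27.8% higher and 28.4% lower). At least 2-fold were 12, 12 and 8 of these changes, where 15.1%, 17.4% and 8.97% of all tested genes changed that much. Members over the filter in all 3 libraries of 1 medium only are again among them. Without the third M2 CM library, Tnfrsf21 and Tnfrsf13c lost their calls in M2 CM against M1 CM (adjusted p 0.0917 and 0.0631, against 0.0232 and 0.0314 with it), as did Tnfrsf14 in TAM CM against M2 CM (0.109, against 0.0435 with it; edgeR). These comparisons share libraries with those against M0 CM.

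Genes that act with the receptors were taken from lists by role. Among 20 adaptors and proximal kinases, 7 rose and 6 fell in M1 CM, 5 and 2 in M2 CM, and 8 and 9 in TAM CM; 65%, 35% and 85% were called, where 53.4%, 39.4% and 70% of all tested genes were. Their median log2 fold changes were 0.07, 0.01 and 0.01. Traf1, an adaptor that binds TRAF2, rose in each medium, with 85.2 ± 4.31 CPM in M1 CM, 55.0 ± 5.08 in M2 CM, 52.7 ± 1.77 in TAM CM and 30.2 ± 0.391 in M0 CM (SD, n = 3 each). Map3k14 (NIK, the kinase of non-canonical NF-kB) had 37.2 ± 2.11 CPM in M1 CM, 92.8 ± 0.545 in M2 CM, 27.8 ± 1.53 in TAM CM and 70.7 ± 0.532 in M0 CM. It fell in M1 CM (log2 fold change -0.93, adjusted p 1.1e-21) and TAM CM (-1.34, 7.35e-28) and rose in M2 CM (0.39, 6.55e-10, edgeR). Tab2, a TAK1 adaptor, rose in TAM CM by 0.75 on the log2 scale (adjusted p 6.2e-24, edgeR), and Traf7 fell there by 0.72 (adjusted p 1.88e-20, edgeR). Smaller changes were called in M1 CM, of 0.24 for Tab2 and -0.11 for Traf7 (adjusted p 2.32e-07 and 0.0189, edgeR).

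Of 14 ubiquitin editors of the TNF receptor complex, 11 rose and 2 fell in M1 CM, 7 and 1 in M2 CM, and 5 and 7 in TAM CM; 92.9%, 57.1% and 85.7% were called, against 53.4%, 39.4% and 70% of all tested genes. Tnfaip3 (A20, an inhibitor of NF-kB) had 62.9 ± 0.578 CPM in M1 CM, 28 ± 1.4 in M2 CM, 11.2 ± 0.537 in TAM CM and 23.7 ± 3.10 in M0 CM. It rose by 1.41 in M1 CM and by 0.24 in M2 CM and fell by 1.08 in TAM CM (adjusted p 1.92e-24, 0.00435 and 1.19e-16, edgeR). Birc3 (cIAP2, an E3 ligase that protects from TNF-induced death) rose in M1 CM by 1.03 and fell in TAM CM by 0.46, and its relative Birc2 (cIAP1) fell in TAM CM by 1.24 (adjusted p 3.77e-26, 4.4e-12 and 1.7e-29, edgeR). Smaller rises were called for Birc3 in M2 CM (0.21) and Birc2 in M1 CM (0.17; adjusted p 0.000127 and 0.000255, edgeR). Rnf31 (HOIP, the catalytic subunit of the linear ubiquitin ligase) rose in M1 CM by 1.86 and in TAM CM by 0.35 (adjusted p 4.5e-33 and 1.23e-06, edgeR).

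Of 12 genes of death execution and its control, Fas included, 8 rose and 2 fell in M1 CM, 5 and 1 in M2 CM, and 6 and 5 in TAM CM. The list also holds Cflar and Faim, which inhibit death. Both were among those that rose in M1 and TAM CM, and Cflar was the 1 that fell in M2 CM, so the counts have no single meaning for death. Called were 83.3%, 50% and 91.7% of them, where 53.4%, 39.4% and 70% of all tested genes were. Mlkl, the effector of necroptosis, had 222 ± 4.89 CPM in M1 CM, 78.7 ± 4.33 in M2 CM, 111 ± 2.16 in TAM CM and 77.9 ± 2.52 in M0 CM, and rose in M1 CM by 1.51 (adjusted p 2.02e-35) and in TAM CM by 0.51 (5.19e-16, edgeR). Bid, the link from caspase-8 to mitochondria, rose in M1 CM by 1.44, in M2 CM by 0.44 and in TAM CM by 1.38 (adjusted p 3.28e-31, 2.04e-10 and 1.07e-30, edgeR). Casp6, an effector caspase, rose in M1 CM by 0.18 and in M2 CM by 1.28 and fell in TAM CM by 1.48 (adjusted p 0.00215, 1.79e-27 and 4.68e-27, edgeR).

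Of 11 NF-kB subunits and inhibitors, 8 rose and 1 fell in M1 CM, 7 and 1 in M2 CM, and 4 and 6 in TAM CM, with median log2 fold changes of 0.36, 0.25 and -0.23. The shares called were 81.8%, 72.7% and 90.9%, where those of all tested genes were 53.4%, 39.4% and 70%. Subunits and inhibitors are listed together, so these counts and medians have no single meaning for NF-kB activity. Nfkb1 (p105/p50) had 168 ± 0.534 CPM in M1 CM, 568 ± 1.77 in M2 CM, 122 ± 1.21 in TAM CM and 167 ± 1.59 in M0 CM. It rose in M2 CM by 1.76 and fell in TAM CM by 0.46 (adjusted p 3.9e-41 and 1.72e-17, edgeR). Nfkbia (the inhibitor IkB-alpha, itself an NF-kB target) rose by 0.80 in M1 CM and 0.53 in M2 CM and fell by 0.47 in TAM CM (adjusted p 1.19e-23, 3.65e-16 and 8.94e-15, edgeR). Nfkbib, another inhibitor on the list, rose in each medium. Its log2 fold changes were 1.23, 0.45 and 1.45 for M1, M2 and TAM CM (adjusted p 1.85e-24, 2.6e-08 and 4.25e-28, edgeR). The list's other risers in TAM CM were Rela, Relb and Nfkbid. Nfkb2, Rel, Nfkbie and Bcl3 fell there along with Nfkb1 and Nfkbia.

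Of 7 genes listed for the shedding of ligands and receptors and its control, 4 rose and 3 fell in M1 CM, 3 and 2 in M2 CM, and 3 and 3 in TAM CM, which is 100%, 71.4% and 85.7% called beside 53.4%, 39.4% and 70% of all tested genes. The list holds sheddases together with genes that act on them, the inhibitor Timp3 included, so these counts have no single meaning for shedding. Adam10, a membrane sheddase, had 108 ± 3.48 CPM in M1 CM, 187 ± 8.53 in M2 CM, 91.7 ± 3.63 in TAM CM and 160 ± 3.17 in M0 CM. Timp3, an inhibitor of ADAM17, had 175 ± 5.75 CPM in M1 CM, 151 ± 5.34 in M2 CM, 418 ± 18.6 in TAM CM and 280 ± 10.9 in M0 CM. All 6 of these differences from M0 CM were called. Superfamily receptors outside the symbol rule included Eda2r (the ectodysplasin A2 receptor), which rose in each medium, to 54.5 ± 1.33, 49.0 ± 1.84 and 147 ± 3.37 CPM in M1, M2 and TAM CM, against 36.9 ± 0.742 CPM in M0 CM. The TAM CM rise of Eda2r was 3.99-fold (adjusted p 6.85e-38, edgeR). Relt, the other tested gene of this list, fell in M1 CM (log2 fold change -0.38, adjusted p 0.0109, edgeR). Relt was not called in M2 CM (adjusted p 0.0526) or TAM CM (0.219, edgeR). Of these 2 tested genes, 100%, 50% and 50% were called in M1, M2 and TAM CM, beside the same shares of all tested genes.

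**Figure D4:**
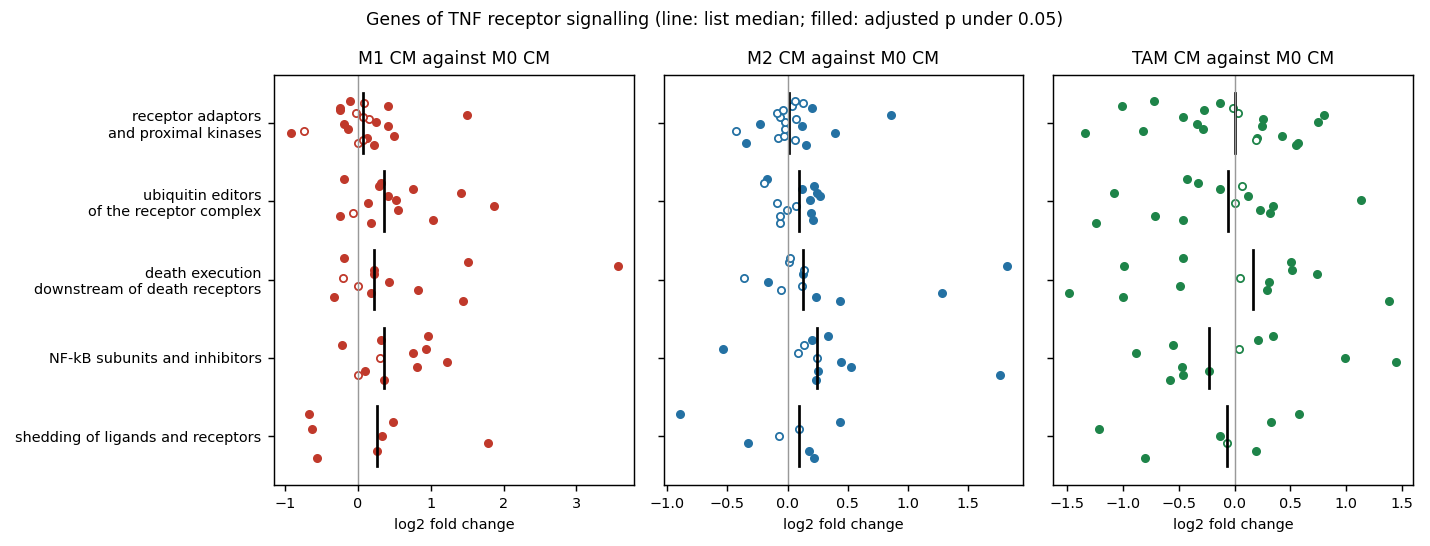
Log2 fold change against M0 CM of each tested gene of the signalling lists (points, filled where adjusted p is under 0.05; vertical line: list median) in M1, M2 and TAM CM. The NF-kB list, which mixes subunits and inhibitors, has medians of 0.36, 0.25 and -0.23.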

How the data were processed

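RNA sequencing libraries of SCC7 cells in 4 conditioned media were grouped by their titles. The authors deposited raw read counts per Ensembl gene with no scaling; the submitters' processing notes name HISAT2 2.0 and mm10. The sources used here do not give the counter, its annotation release or its strand setting. Symbols and coordinates came from GENCODE M21 (GRCm38), which matched 55227 of 55487 genes, and promoters from RefSeq GRCm38.p6.

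The count model was edgeR 4.0.16 under R 4.3.3. Low genes were removed by filterByExpr (14509 genes left; the rest held 0.0815% of counts), and the others were scaled by TMM and fitted by glmQLFit (robust) with a mean per group over all 12 libraries. Comparisons used glmQLFTest, and p-values were adjusted by Benjamini and Hochberg's method across every tested gene, with calls under 0.05. SE is the absolute log2 fold change divided by the root of F, and understates counting error where counts are few. Levels between genes use merged exon length. Ratios of 1 to 3 counts carry exact binomial intervals, and a group at 0 takes a floor of 3 counts; both cover counting error only.

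Called members with at least 1 CPM in some medium are described by library, and up to 4 genes of each signalling list with the smallest p among the media were eligible to be named. Members and lists were chosen with earlier results of these data known. DESeq2 1.42.0, other scalings and filters, 2-group fits, a replicate block and leaving out each library were tried. Some results are not reported here.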

Additional observations from a re-analysis of the deposited data

How the results depend on the processing

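The 7 counts of called members were recomputed under 19 alternatives (18 for any of the 4 media, which has no 2-group fit) and each stayed within 1.5 times its value: 10 to 13 for M1 CM against M0 CM, 9 to 13 for M2 CM against M0 CM, 19 to 22 for TAM CM against M0 CM, 17 to 19 for TAM CM against M1 CM, 16 to 21 for TAM CM against M2 CM, 11 to 15 for M2 CM against M1 CM, and 23 to 25 for any of the 4 media. Without the third M2 CM library, M2 CM against M0 CM gave 9. With the replicate number as a block the counts were 12, 11, 21, 18, 20, 14 and 23 in the same order. Deviations of same-numbered libraries correlated at -0.03 to 0.05 (median 0.015), and those of differently numbered libraries at -0.05 to 0.05 (median -0.008). Pairing by number was thus not seen, but these values do not settle whether same-numbered libraries were prepared together. Of 156 pairs of member and comparison, 96 were called; 18 of these lost the call under some alternative and 9 others gained one, and none that a fit called changed direction. Besides those named above, log2 fold changes of low members moved by over 1.5-fold without 1 library: Tnfsf18 in TAM CM to 7.96 against M0 CM without the third M0 CM library, to 7.97 against M1 CM without the third M1 CM library and to 7.97 against M2 CM without the second M2 CM library (each then against 0 counts), Ngfr in TAM CM against M1 CM to 6.61 without the second M1 CM library, Tnfrsf8 in M2 CM against M1 CM to 4.86 without the third M1 CM library, and Tnfsf10 to -7.30 in TAM CM and -6.87 in M2 CM, both against M1 CM, without the second TAM CM or first M2 CM library. Members under 1 CPM rest on few counts at this depth.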
